A study of Mus musculus with 2 samples.

Results

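The tumour suppressor p53 and its damage-response circuit were read here through 10 genes: Trp53 itself, its inhibitors Mdm2 and Mdm4, and the targets Ccng1, Tnfrsf10b, Gadd45a, Sesn1, Sesn2, Rrm2b and Psrc1. Their probes were taken by gene name, or by the gene of the transcript accession, from the probes that are not controls. This gave 12 of 55680 probes and 10 of 34786 named genes or transcripts. Mdm4 and Rrm2b had 2 probes each and the others 1.

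p53 is a transcription factor that is kept scarce by the ubiquitin ligase Mdm2 and held inactive by its relative Mdm4. DNA damage releases it, and it then switches on genes for cell cycle arrest, repair, metabolism and death, as well as Mdm2, which closes a feedback loop. In haematopoietic stem cells this circuit is known to govern quiescence and survival after damage. Decitabine (DAC) is a cytosine analogue that is built into DNA and traps DNA methyltransferases there.

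RNA came from LSK cells of the bone marrow, sorted as Lineage-, Sca-1+ and c-Kit+, the fraction that holds haematopoietic stem and multipotent progenitor cells. The cells were those of a myelodysplastic syndrome (MDS) with the genotype Tet2KD/KD; Ezh2delta/delta, strain C57BL/6, and came from secondary recipients 10 weeks after transplantation. There was 1 array of cells taken 7 weeks after DAC treatment and 1 array of cells taken 7 weeks after phosphate-buffered saline (PBS), the control. Both groups shared the genotype, the tissue and the sort, so no array of untransplanted or wild-type cells stands beside them. The sources used here do not give the number of recipients behind an array, their age, the dose, how the Ezh2 deletion was driven, or how many of the 7 weeks the treatment itself took. With 1 array per group no p-value can be given, and animals, sorting, amplification and treatment cannot be told apart.

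Each probe is a designed 60-base oligonucleotide, and the letters show where in the mRNA a gene was read. Of the 12 probes, 5 hold AATAAA, the core of the signal that ends most mRNAs, against 10.1% of all probes on the array. Those 5 are shown with this hexamer in capitals, as 30 of their 60 bases.

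Mdm2: gtcccgatttacAATAAAgtaccttgtgtg
Ccng1: agaAATAAAattgctgagtttatctgcaaa
Tnfrsf10b: tggcagtgtaattacatacacaaAATAAAt
Sesn1: agctccttaaagAATAAAgctggaaaatat
Psrc1: agaaactcacaaacaaaatAATAAAtgcag

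The genes with 2 probes are shown by the first 30 bases of each, with the position in the transcript at which the probe starts. The Mdm4 probes start at bases 1445 and 3426 of NM_008575, and the Rrm2b probes at bases 2530 and 4339 of NM_199476.

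Mdm4, from base 1445: acagatattttttctgagcagaaagctgaa
Mdm4, from base 3426: gacccattaagctctgtttacagccttgaa
Rrm2b, from base 2530: acactgttataaaggaatgttcttttaatg
Rrm2b, from base 4339: gtaatgatcatttaactaaattactaatta

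The Rrm2b probe from base 4339 had the lowest GC content of the 12, 23.3%, where the 5th percentile of all probes was 35.0% and the median 43.3%. Its other probe had 36.7%, and the Mdm4 probes 35.0% and 41.7%. The other probes of the set ran up to 55.0%, in Sesn2.

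Promoters of 8 of the 10 genes, 11 start sites in all, were held in the RefSeq promoter table of the mouse build GRCm38.p6. The 250 bases before each start were searched on both strands for the p53 decamer, the unit that occurs in pairs in p53 response elements. It was found at 5 of the 11 start sites and at 7.13% of all 32851 promoters of the same length. The matches are shown in capitals within 30 bases, on the strand of the gene.

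Trp53, chr11:69580274-69580303: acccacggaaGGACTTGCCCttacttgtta
Mdm2, chr10:117710925-117710954: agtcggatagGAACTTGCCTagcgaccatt
Ccng1, chr11:40755452-40755481: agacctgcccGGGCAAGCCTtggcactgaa
Gadd45a, chr6:67037428-67037457: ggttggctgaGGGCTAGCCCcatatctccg
Sesn1, chr10:41887256-41887285: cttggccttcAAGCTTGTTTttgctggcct

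In Ccng1 the 10 bases just before the capitals form a second decamer with 1 letter off, so that the pair abuts. A decamer with a second one at most 1 letter off within 13 bases was found at 0.898% of all promoters and in no other promoter of these genes. No match at the starts of Mdm4, Sesn2 and Psrc1 says only that these letters are not in the window searched. A match describes the sequence and does not show binding.

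The question the arrays address is how expression in these cells differs after DAC. Signals are given as log2 values with 0 at the 75th percentile of the array, and differences as DAC minus PBS on that scale. Mdm4, Ccng1 and Tnfrsf10b were at least 2-fold higher on the DAC array, Rrm2b and Psrc1 at least 2-fold lower on the probe that stood for them, and Trp53, Mdm2, Sesn1 and Sesn2 within 2-fold. Gadd45a passed the background call only after DAC. Thus 3 of the 9 genes with a measured difference were higher and 2 lower, against 10.0% and 6.84% of all 18211 measured genes. The probes of Rrm2b went opposite ways, and with the mean over a gene's probes 1 gene was lower. At 1.5-fold, 5 were higher and 2 lower, against 19.8% and 16.1%, and at 4-fold 1 was higher and 0 lower, against 1.86% and 1.28%. These shares depended on the scaling between arrays: over all probes they were 7.30% and 10.2%, with loess 8.17% and 8.45%, and the counts of 3 and 2 were the same under either. Repeated spots give the only error at hand, the SD of a log2 difference between spots, which was 0.32 for dim, 0.15 for middling and 0.09 for bright genes, in groups of equal size. In the same groups 22.7%, 22.1% and 5.80% of genes lay past 2-fold in either direction. Trp53 and Sesn1 were bright genes and the others dim or middling. The ranks of single genes given below are over all measured genes. Within a gene's own group, the share at least as high was 31.5% for Trp53, 23.3% for Mdm2 and 15.3% for Sesn2. It was 8.43% for Ccng1, 6.47% for Tnfrsf10b, and 1.42% and 9.82% for the Mdm4 probes from bases 3426 and 1445. For Psrc1, 7.59% of its group were at least as low.

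**Figure D1:**
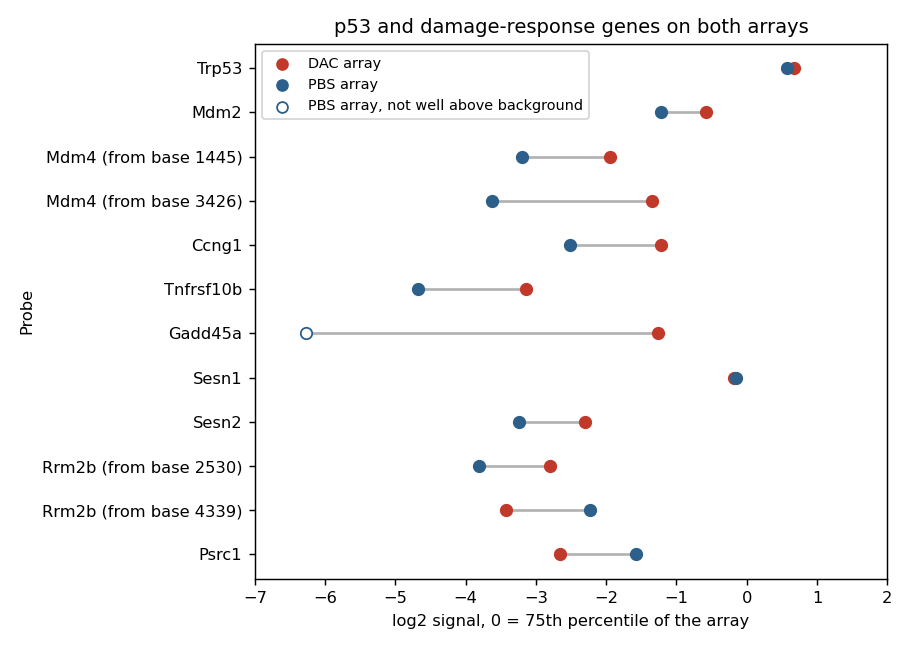
Each row is 1 probe, placed by its log2 signal on the DAC array (red) and the PBS array (blue), with 0 at the 75th percentile of the array. The open circle marks Gadd45a, not well above background on the PBS array. The probe of Psrc1 and the Rrm2b probe from base 4339 lie lower on the DAC array by over 1 log2 unit, while the signals of Trp53 and Sesn1 nearly coincide.

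Trp53, which encodes p53 itself, was read by 2 spots of 1 probe (NM_011640; chromosome 11, 69404204 to 69404263, mm9). The spots gave log2 signals of 0.67 and 0.68 after DAC and 0.61 and 0.54 after PBS. The values of the DAC array were the higher, by 0.10 on average (1.07-fold), and 44.4% of measured genes had a difference at least as high. This is about the spread of a difference between single spots at that signal, 0.09, while an average of 2 spots varies less. The sign turned with the scaling: the difference was −0.10 with scaling over all probes, −0.06 with median centring and −0.10 with the authors' matrix values.

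Mdm2, the ubiquitin ligase that marks p53 for destruction and is itself a p53 target, had log2 signals of −0.58 after DAC and −1.23 after PBS (NM_010786; chromosome 10, 117126010 to 117126069). Its difference of 0.65 (1.57-fold) was larger than the spot SD of 0.15 but within 2-fold, and 17.9% of measured genes were at least as high. The difference lay between 0.44 and 0.59 under the alternative scalings and background corrections. The remaining alternatives cannot move a gene with 1 probe measured on both arrays.

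Mdm4, which binds p53 and blocks its activation domain, was the gene with the highest difference of the 9. Its probe from base 3426 (chromosome 1, 134886426 to 134886485) had log2 signals of −1.35 after DAC and −3.63 after PBS, a difference of 2.28 or 4.85-fold. Its probe from base 1445 (chromosome 1, 134888407 to 134888466) had −1.95 and −3.20, a difference of 1.25 or 2.38-fold. Both probes were higher on the DAC array, and 1.08% and 6.72% of measured genes had a difference at least as high. Among 3255 genes with exactly 2 measured probes, 3.75% had both at least 2-fold higher, while 40.4% had probes of opposite direction. That both Mdm4 probes lay past 2-fold depended on the processing. The probe from base 1445 fell within 2-fold in 3 of 7 alternative scalings and background corrections, with differences of 0.70 to 1.09 over the 7. The probe from base 3426 stayed past 2-fold in all 7. The Mdm4 probes differed from each other by 1.03, where the median over those genes was 0.54.

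Of the targets that act on the cell cycle, Ccng1 encodes cyclin G1, a p53-induced partner of protein phosphatase 2A that acts back on Mdm2. It had log2 signals of −1.23 after DAC and −2.51 after PBS (NM_009831; chromosome 11, 40562427 to 40562486). The DAC array was higher by 1.28 (2.44-fold), and 6.34% of measured genes were at least as high. This was the gene whose promoter held the paired decamer. Its relative Ccng2 had a difference of −0.04.

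Gadd45a, a stress protein that slows the cell cycle and was one of the first p53 targets known, had the widest gap of signals among the 12 probes. Its processed intensity was 338 after DAC and 7.96 after PBS (NM_007836; chromosome 6, 66985376 to 66985435), or −1.26 and −6.28 on the scaled log2 scale. The spot was not well above background on the PBS array, so the difference is given as a bound: at least 12.7-fold higher, against the dimmest probe that passed the background call there. On the DAC side 3.61% of all named genes had a bound past 2-fold, on the PBS side 1.52%, and a bound as large as this for 20 genes, or 0.0575%. Its raw spot brightness, before any subtraction, was 374 and 74.3, and the bound without background subtraction was 1.75 on the log2 scale. The paralogues Gadd45b and Gadd45g were measured on both arrays, with differences of 0.00 and 0.45.

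Psrc1 encodes a microtubule-binding protein of the mitotic spindle whose expression is known to respond to p53. Its log2 signals were −2.66 after DAC and −1.58 after PBS (NM_001190161; chromosome 3, 108190744 to 108190803). The DAC array was lower by 2.13-fold, a difference of −1.09, and 5.92% of measured genes were at least as low.

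Tnfrsf10b, the death receptor for the ligand TRAIL, represents the apoptotic arm. Its log2 signals were −3.15 after DAC and −4.68 after PBS (NM_020275; chromosome 14, 70184141 to 70184200), the latter close to the dimmest signal that passed the background call, −4.93. The difference was 1.54 or 2.90-fold, and 4.09% of measured genes were at least as high. The raw brightness of this dim spot, 157 after DAC and 92.6 after PBS, became 91.7 and 24.0 once background was subtracted. The difference dropped to 0.40 with no background subtraction.

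The sestrins are stress proteins that restrain the growth kinase mTORC1 and oxidative damage. Sesn1 (NM_001162908; chromosome 10, 41628012 to 41628071) had log2 signals of −0.19 after DAC and −0.15 after PBS, a difference of −0.04 that is smaller than the spot SD of 0.09. Sesn2 (NM_144907; chromosome 4, 132048858 to 132048917) had −2.31 and −3.24, a difference of 0.94 or 1.92-fold, with 11.0% of measured genes at least as high. Sesn3, the paralogue that is chiefly under FOXO control, had a difference of 1.19 or 2.29-fold. The 3 sestrin genes thus differed in size of difference, with Sesn1 apart from the others.

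Rrm2b encodes the p53-induced small subunit of ribonucleotide reductase, which supplies deoxynucleotides for repair. Its probe from base 4339 (chromosome 15, 37853821 to 37853880) had log2 signals of −3.42 after DAC and −2.23 after PBS, a difference of −1.19 or 2.27-fold lower. Its probe from base 2530 (chromosome 15, 37855630 to 37855689) had −2.79 and −3.81, a difference of 1.01 or 2.02-fold higher. Under the 7 alternative scalings and background corrections the probe from base 2530 stayed higher but within 2-fold, at 0.38 to 0.85. The probes of this gene went opposite ways and stood 2.20 apart, a gap at least as large in 5.44% of genes with exactly 2 measured probes. The mean of both was −0.09, so no direction can be given for the gene. The other subunits of the enzyme had differences of −0.55 for Rrm1 and 0.13 for Rrm2, the cell cycle form of the small subunit.

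**Figure D2:**
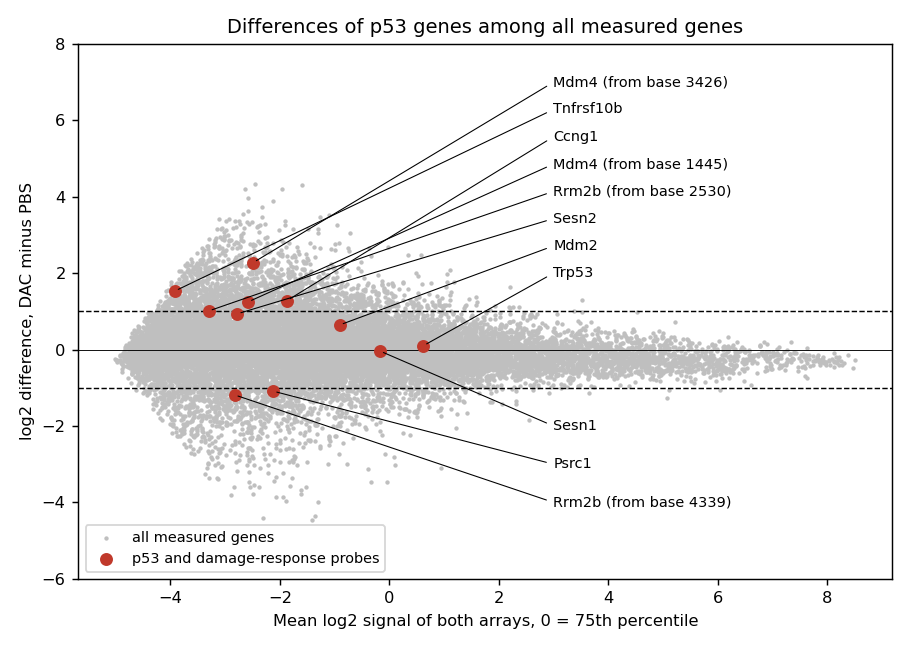
Each grey point is 1 of 18211 measured genes, with the mean log2 signal of both arrays on the x axis and the log2 difference on the y axis. Red points are the 11 probes measured on both arrays, and dashed lines mark 2-fold. The probes past 2-fold lie at mean signals where many other genes do too, and Trp53 and Sesn1 lie near 0.

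Which of these genes lay past 2-fold depended on the background correction. With normexp correction the differences became 1.34 for Mdm4, 0.89 for Ccng1, 0.42 for Tnfrsf10b, −0.84 for Psrc1 and −0.80 for Rrm2b. Mdm4 was then the only gene past 2-fold of the 9, where 4.01% of all genes were higher and 4.15% lower, and the bound of Gadd45a was 1.80 on the log2 scale. Directions were the same in all 12 alternatives that kept the gene, except for Trp53 as given. For genes with 1 probe measured on both arrays, only the scalings and background corrections could change the value.

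**Figure D3:**
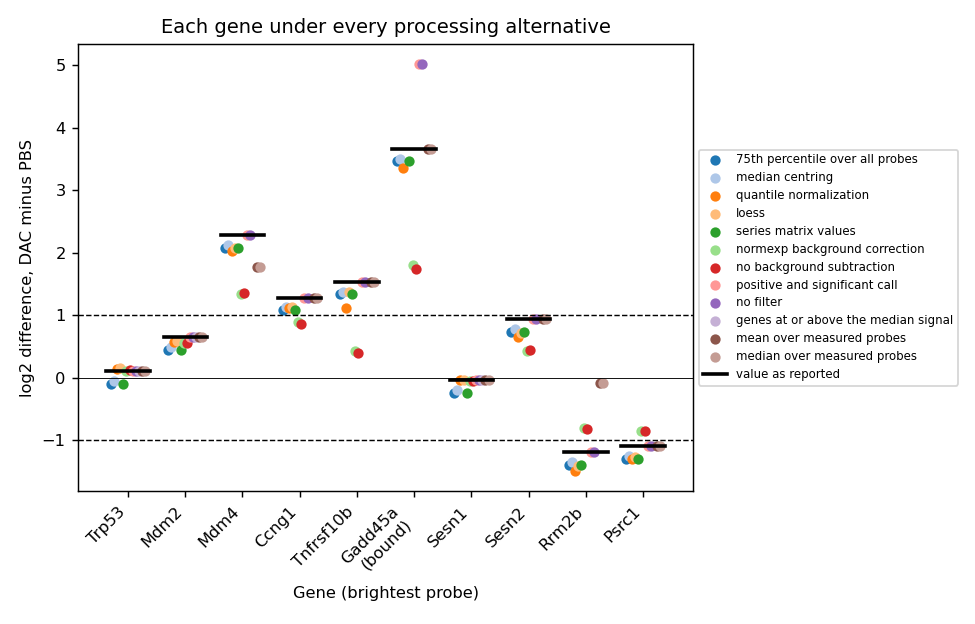
Points are the log2 differences of each gene under 12 alternatives to the processing, and black bars the values as reported. For Gadd45a they are bounds, except under the positive and significant call and no filter, where the difference was 5.01. Of the genes measured on both arrays, Tnfrsf10b and Mdm4 moved most with the background correction (to 0.40 and 1.34), and Rrm2b moved to −0.09 when its probes were averaged.

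The rest of the pathway was read through 6 lists of 72 genes. A difference was measured for 60 of them: 9 lay past 2-fold upward (15.0%), 3 downward (5.0%) and 48 within it. Their median difference was 0.15, against 0.02 over all measured genes, and over all genes the shares were 10.0% and 6.84%.

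Of 15 further p53 targets in apoptosis 12 were measured, and 2 of these were past 2-fold upward, 1 downward and 9 within it (median 0.27). Zmat3, an RNA-binding protein in the p53 programme, had a difference of 1.20, and Trp53inp1, which promotes p53 phosphorylation, 1.22 with 0.43 on its second probe. The PBS signal of Zmat3 was dim, −4.53, where the dimmest that passed the background call was −4.93. The lower gene was Pidd1, the scaffold of the caspase-2 complex, at −1.53 with −0.16 on its second probe. Bax, the pore-forming death effector, had −0.03, and Fas was not well above background on either array.

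Of the 8 targets in cell cycle arrest 5 were measured. Cdkn1a, the p21 inhibitor of cyclin-dependent kinases, was 3.17-fold higher (1.66), and the other 4 lay within 2-fold, with a median of the 5 of 0.34. Only 1 of the 3 Cdkn1a probes was well above background on both arrays. Gdf15, a stress cytokine, was well above background on the PBS array only, with a bound of 1.48-fold. Of 10 targets in repair and metabolism 8 were measured: 2 past 2-fold upward, 1 downward and 5 within it (median −0.20). The translesion polymerase gene Polk had 2.57 (0.57 on its second probe), the carbonyl reductase gene Dcxr 1.33 (1.73), and the ferrireductase gene Steap3 −2.80 (−1.46). Tigar, which lowers glycolysis, passed the background call only after DAC, with a bound of at least 7.80-fold higher on whichever of its 2 probes was brighter there.

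Upstream of p53, 16 of 18 measured damage sensors and kinases lay within 2-fold, with a median of 0.16. The checkpoint kinase gene Chek2 was 2.70-fold higher (1.43), and Nbn, of the complex that binds broken ends, passed the background call only after DAC, at least 3.53-fold higher. Atm, the kinase that activates p53 at double-strand breaks, had probes of opposite direction, −1.17 on the brighter and 2.56 on the other. Of 11 measured regulators and relatives of p53, 2 lay past 2-fold upward, 0 downward and 9 within it (median 0.15). The higher ones were the deacetylase gene Sirt1, by 10.2-fold (3.35), and Trp53bp2, which encodes the p53 cofactor ASPP2, by 2.76-fold (1.47). Sirt1 was read by 1 probe with a dim PBS signal of −4.19, where the dimmest that passed the background call was −4.93. Cdkn2a, whose product Arf inhibits Mdm2, also passed the call only after DAC, at least 2.25-fold higher. The p53 relatives Trp63 and Trp73 had differences of −0.19 and −0.20, from 1 of 4 and 1 of 3 probes that were well above background on both arrays.

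**Figure D4:**
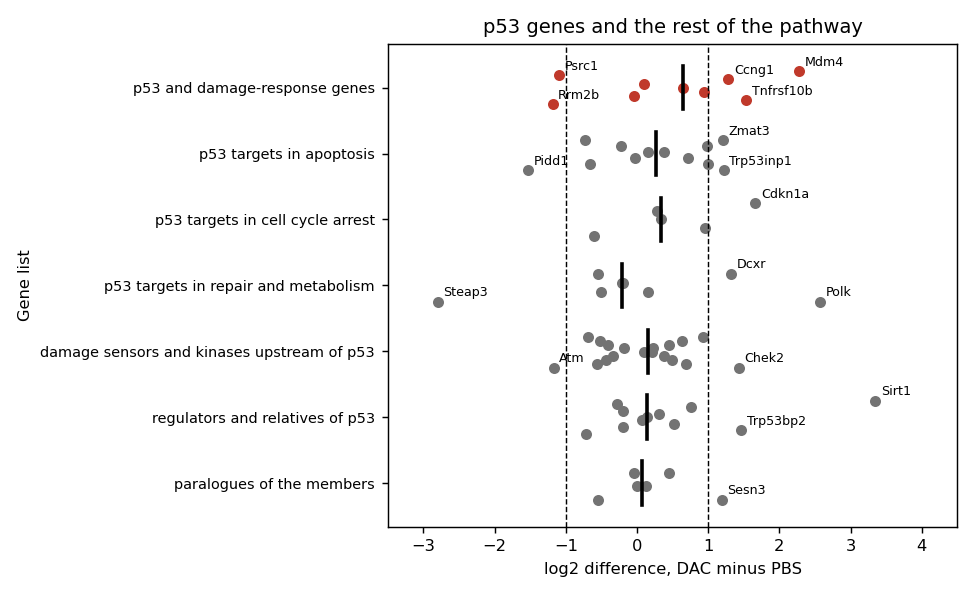
Each point is a gene measured on both arrays, placed by its log2 difference and sorted by list, with the median of each list as a black bar and 2-fold as dashed lines. The p53 and damage-response genes have a median of 0.65, and the medians of the other lists run from −0.20 to 0.34.

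The sort markers Kit and Ly6a, which encode c-Kit and Sca-1, were well above background on both arrays, with differences of 0.12 and 0.07, and 9 of 10 LSK genes were measured. Markers of other cell types were also read, as the sum of a list's linear scaled signals. The sum was 1.49 after DAC and 4.51 after PBS for mast cell, basophil and eosinophil genes (4 of 6 measured), 6.52 and 8.42 for mature neutrophil genes (6 of 8), and 6.05 and 3.63 for B cell genes (4 of 5). It was 6.73 and 6.89 for monocyte and macrophage genes (4 of 7), 8.33 and 8.39 for T and NK cell genes (3 of 7), and 2.82 and 2.11 for erythroid genes (5 of 7). For megakaryocyte genes it was 2.73 and 1.86 (5 of 6), and for endothelial and stromal genes 1.74 and 1.24 (3 of 7). Among the defining markers, Ms4a1, Cd3g, Cd8a, Ms4a2, Cdh5 and Col1a1 were not well above background on either array. Fewer cells of a type and less RNA per cell cannot be told apart in such bulk samples, and the part of other cells in the differences of the p53 genes was not tested. The DAC array was also the brighter, with 56.8% of probes well above background against 48.5%.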

How the data were processed

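Single-colour Agilent arrays of 2 samples, DAC and PBS, both on 1 slide, were analysed. Per the file headers, the authors' scanner output was made with Agilent Feature Extraction 10.7.3.1, protocol GE1_107_Sep09, with probe positions on mm9. The deposited processed intensity is background-subtracted and detrended, not normalized between arrays. The deposited 0 or 1 calls give spots well above background, and other deposited columns the raw brightness. The deposited series matrix holds log2 values; set against the processed intensity its difference had a slope of 1.00 and an offset of −0.60, and the baseline of each probe stays unknown. How the matrix was made is not given in the sources used here.

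Log2 processed intensities were averaged over unflagged spots and scaled by the 75th percentile, taken per array from those 25404 probes (45.6%) that were well above background on both. The brightest probe stood for a gene. No member spot was flagged or saturated. Names came from the files and from RefSeq's GRCm38.p6 table, used for names only: 26761 probes matched by accession, 3819 by symbol, 639 by synonym, and 24461 kept the file's name. Whether a probe lies in a coding or untranslated part was not determined. Where a gene was well above background on 1 array only, the bound sets the signal of its probe that was brightest there against the other array, at that probe's own signal or at the dimmest probe that passed the call, whichever is higher. There is no test with 1 array per group, and the number of arrays limits precision. The fold threshold was 2. The members, the gene lists and the rule for naming genes were chosen with earlier results of these data known. That rule named every member, up to 4 genes past 2-fold at either end of each list, the members' paralogues, Cdkn1a, Bax and Atm. A few further genes (Fas, Gdf15, Trp63, Trp73) and the cell type markers given by name fall outside that rule. They were named after their values were seen. One marker gene is not reported here. The scaling and calls were tested on simulated data. Tools were Python 3.11.15, NumPy, pandas, R 4.3.3 and limma 3.58.1 (normexp with offset 50, quantile and loess normalization).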

Additional observations from a re-analysis of the deposited data

How the results depend on the processing

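With 1 array per group no array could be left out. No paired analysis was possible because each group has 1 sample and no test was made. Of 140 values of single genes or probes under the alternatives, 118 kept their side of 2-fold, 22 fell within it, and no value past 2-fold changed sign. Part of the 118 was fixed in advance, because changes of call, filter or probe averaging cannot move a gene with 1 probe measured on both arrays. The brighter probes of Mdm4 and Rrm2b also entered both as the gene and as the probe. The 118 is therefore no measure of robustness. The sign of Trp53, within 2-fold throughout, turned with the scaling. The other scalings shifted the median of all genes by −0.20 (over all probes and the matrix values), −0.16 (median centring), −0.14 (quantile) and −0.09 (loess). The count of genes of the set at least 2-fold higher, 3 as reported, was 1 with normexp, 1 with no background subtraction and 0 among the brighter genes (signal at or above the median), where 3 genes were left. It was 5 at a threshold of 1.5-fold and 1 at 4-fold, against 19.8% and 1.86% of all genes. The count at least 2-fold lower, 2 as reported, was 0 with normexp, with no background subtraction, among the brighter genes and at 4-fold, and 1 with the mean or the median over measured probes, which takes out Rrm2b. Of the other pathway genes, 9 higher became 4 with normexp, 5 with no subtraction, 14 with no filter and 3 among the brighter genes, and 3 lower became 5 with no filter and 1 with the mean or median over probes. The share of all genes higher, 10.0%, became 4.01% with normexp, 3.98% with no subtraction, 15.4% with no filter and 5.26% among the brighter genes, and the share lower, 6.84%, became 4.15% and 4.05% with normexp and no subtraction. The cause of these moves was not tested.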
